A study of Xenopus laevis with 20 samples.

Results

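Embryos of the clawed frog Xenopus laevis that received Xrx1 mRNA were compared with uninjected embryos at the early neurula stage, gene by gene and homeolog by homeolog. The comparison used 10 of the 20 arrays of the series, 5 labelled mRNA injected and the 5 controls with the same replicate numbers, 1 to 5. It covered the 10435 of 15611 probe sets that were not manufacturer's controls and lay above log2 4 in at least 5 of the 20 arrays. The question set by the design is which transcripts differ when Xrx1 is supplied in excess.

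Each mRNA array measured whole embryos injected into both dorsal blastomeres at the 4-cell stage with Xrx1 mRNA and a GFP tracer and collected at stage 13. The sample labels give 50 pg of Xrx1 mRNA and 400 pg of GFP, whereas the design text gives 50 ng and 400 ng. Controls were uninjected and kept in the same medium, so that no control received the tracer or an injection, and the effect of the injection itself cannot be told apart from that of Xrx1. Injected embryos were selected by fluorescence. Each labelled sample pooled RNA of 3 embryos by the sample labels, and the design text speaks of extraction from single embryos. The labels do not say whether a replicate number stands for a clutch or a day. The p-values of the paired fits therefore measure only the spread of the differences within these same-number pairs of samples. The arrays hold whole embryos, and fewer cells of a type cannot be told apart from less of a transcript per cell.

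Xrx1, now called rax, encodes a homeodomain transcription factor of the anterior neural plate that is needed for eye formation. It acts in the eye field together with pax6, six3, otx2 and other factors, in front of the midbrain and hindbrain territories and behind the mucus-secreting cement gland. The Xenopus laevis genome arose by the joining of related ancestral genomes, and many genes persist as a pair of homeologs, the .L copy on the longer and the .S copy on the shorter chromosome of a homeologous pair. Where both copies are measured by different probe sets, each gene carries a second measurement of its response in the same arrays.

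The labels and the arrays were checked first. The control probe sets AF292560 and M62653, taken here as the tracer signal, lay at 2.81 to 3.56 in the controls and at 13.1 to 14.5 in the mRNA arrays. The control probe set named for EGFP did not separate the groups and lay at 2.19 to 2.27 in all 10 arrays. Of the 26 markers for the tissues of a neurula, 19 had a tested copy, and the 28 copies lay at mean log2 levels of 3.62 to 11.7. The level at the 3' end minus that at the 5' end of 4 actin and Gapd control transcripts grows with RNA breakdown. It was 1.64 ± 1.27 (SD, n = 5) in controls and 2.68 ± 0.806 (SD, n = 5) in mRNA arrays (two-sided exact permutation without pairing p = 0.175, two-sided exact sign flip of the pair differences p = 0.3125). By pair it differed by -0.50, 1.92, 0.52, -0.03 and 3.29 in pairs 1 to 5, so that pairs 2 and 5 stood apart from the other 3. Of 41 control probe sets for bacterial sequences, 11 were higher in mRNA arrays, by log2 0.36 to 0.61, and 0 were lower in a paired limma fit of the control probe sets.

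**Figure D1:**
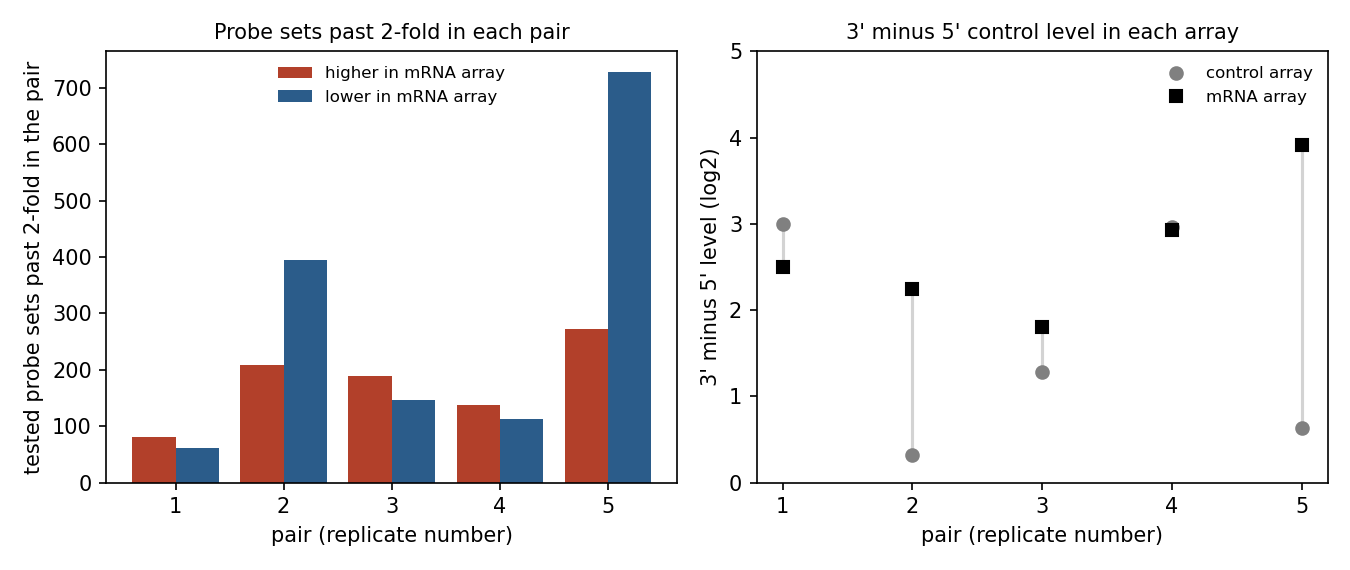
Left, the number of tested probe sets more than 2-fold higher (red) or lower (blue) in the mRNA array than in the control array of each pair; pair 5 had 272 and 728 and pair 1 had 81 and 61. Right, the 3' minus 5' log2 level of 4 control transcripts in each control array (circle) and mRNA array (square), with the widest gaps in pairs 2 and 5.

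The pairs differed in how much they changed and how alike they were. The SD of the log2 difference, mRNA minus control, over the tested probe sets was 0.341, 0.526, 0.432, 0.405 and 0.656 in pairs 1 to 5. Pairs 2 and 5 correlated across the 10435 probe sets at a Pearson r of 0.678, and the other 9 combinations at -0.014 to 0.319. Probe sets of 1 pair share its arrays and are not independent, so these are descriptions. Pair 1 correlated with the mean of the other pairs at 0.085, pair 3 at 0.306 and pair 4 at 0.351. The medians of gene lists and the values of several genes below are therefore also given for pairs 1, 3 and 4 and for pairs 2 and 5.

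Most transcripts differed little between injected and control embryos. Over the 10435 probe sets the median log2 difference was 0.03, with quartiles at -0.12 and 0.17, against a median SE of 0.133 for a single probe set. In the paired limma fit 0 probe sets were called higher and 7 lower at a Benjamini-Hochberg adjusted p under 0.05, which is 0.0671% of those tested. At an unadjusted p under 0.05 there were 846 higher (8.11%) and 682 lower (6.54%). The 7 called were hesx1.L, hesx1.S, fezf2.L, rax.L, a pair of pax6.L probe sets and 1 that the annotation leaves unnamed. The pax6.L probe sets differed by -1.18 ± 0.11 and -1.08 ± 0.10, and fezf2.L by -1.35 ± 0.16. Neither of these pax6.L probe sets is of the manufacturer's unique type, and both stand for 1 gene copy. A further pax6.L probe set, which had the highest mean of that copy, was not called. The unnamed probe set was at 6.87, 7.11, 7.34, 6.25 and 6.76 in controls 1 to 5 and at 4.29, 3.65, 5.60, 2.82 and 3.38 in mRNA arrays 1 to 5. Its groups did not overlap, and mRNA arrays 2, 4 and 5 were under log2 4. Without the replicate block limma called 0, with 812 at an unadjusted p under 0.05. It called 0 without pair 1, 2 or 4, 5 without pair 3 and 2 without pair 5. With the 3' minus 5' level as a covariate it called 15, 3 higher and 12 lower, with 6 of the 7 among them.

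The tails of the distribution were unequal. More than 2-fold higher, on the mean of the 5 pairs, were 21 probe sets (0.201%), and more than 2-fold lower were 81 (0.776%). The higher 21 were mostly of 1 sign over the pairs, 19 of them being higher in 5 of 5 pairs, although sizes varied between pairs. Of the lower 81, 33 were lower in 5 of 5 pairs, 70 had an unadjusted p under 0.05, and 14 had an mRNA mean under log2 4. Pairs 2 and 5 were the most extreme pairs for 55 of the 81 lower probe sets and for 3 of the 21 higher ones. From pairs 1, 3 and 4 alone the counts were 24 higher and 40 lower. From pairs 2 and 5 alone they were 149 higher and 495 lower. The imbalance toward lower values was thus smaller in the other 3 pairs, and of the 81 lower probe sets 28 were also past 2-fold in pairs 1, 3 and 4, against 12 of the 21 higher ones.

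**Figure D2:**
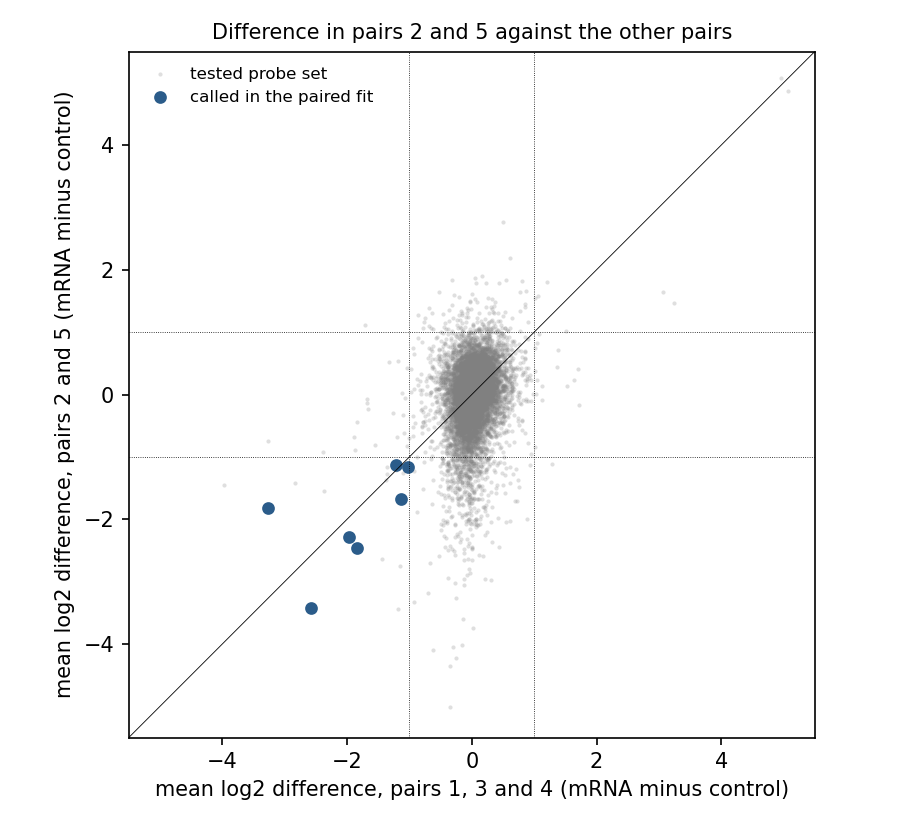
Mean log2 difference (mRNA minus control) of each of the 10435 tested probe sets in pairs 2 and 5 (vertical) against pairs 1, 3 and 4 (horizontal), with the 7 called probe sets in blue and dotted lines at a 2-fold difference. The cloud extends downward along the vertical axis, where pairs 2 and 5 alone had 495 probe sets past 2-fold lower, while the called probe sets lay past 2-fold on both axes.

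Size and direction also varied with the level of the transcript. The SD of the difference was 0.326 for probe sets with a mean under log2 6, 0.322 from 6 to 8, 0.270 from 8 to 10 and 0.223 above 10. Above 10 no probe set of 1292 was past 2-fold. The share that was higher in mRNA arrays was 58.8%, 58.7%, 54.5% and 46.8% in the same order. Abundant transcripts were thus more often lower, and scarce ones more often higher.

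Consistency over the 5 pairs was tallied without a test. A difference of 1 sign in 5 of 5 pairs was found for 823 probe sets higher (7.89%) and 588 lower (5.63%). Of the rest, 2174 were higher in 4 pairs, 2760 in 3, 2462 in 2 and 1628 in 1. The median log2 difference was 0.32 for those higher in all pairs and -0.33 for those lower in all pairs, so that most consistent differences were below 2-fold. Of the 823, 19 were past 2-fold, and of the 588, 33. With each array centred on its median the split was 687 higher and 669 lower. The share lower in all 5 pairs grew with level, from 3.49% under log2 6 to 10.4% above 10, while the share higher in all pairs stayed between 6.68% and 8.88% in the 4 level classes. Groups that did not overlap at all were rarer, with all 5 mRNA arrays above all 5 controls for 68 probe sets (0.652%) and below them for 43 (0.412%).

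Among named copies higher in 5 of 5 pairs, the 3 largest differences belonged to genes outside the anterior lists, and none was called. Next in size was rax.S of the eye field list, at 1.44 ± 0.23 (limma, adjusted p = 0.159), which is described with its homeolog below. The probe set of acod1lb.L was at 3.70, 3.23, 9.64, 3.82 and 4.16 in controls 1 to 5 and at 11.91, 8.80, 10.91, 9.23 and 8.75 in mRNA arrays 1 to 5. Control 3 stood at 9.64 among controls that otherwise stayed below 4.2, so the groups overlapped. Its log2 difference was 5.01 ± 0.81 (limma, adjusted p = 0.159), higher in 5 of 5 pairs, and 5.94 (adjusted p = 0.0470) without pair 3. The satpb.L probe set was at 6.56, 4.58, 5.94, 5.41 and 4.44 in controls 1 to 5 and at 9.61, 5.70, 9.77, 8.26 and 6.25 in mRNA arrays 1 to 5. Its difference was 2.53 ± 0.36 (limma, adjusted p = 0.0948), with 3.24 over pairs 1, 3 and 4 and 1.47 over pairs 2 and 5. Leaving out pairs 2 and 5 brought it past the threshold (adjusted p = 0.0236). The phyhdlb.L probe set was at 6.53, 6.39, 10.20, 6.01 and 7.98 in controls 1 to 5 and at 11.65, 9.07, 10.34, 9.93 and 8.59 in mRNA arrays 1 to 5. Its controls spread from 6.01 to 10.2, and the difference was 2.50 ± 0.69 (limma, adjusted p = 0.288).

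Further higher copies were smaller and also not called. The serine protease gene xepsin.L differed by 1.11 ± 0.21 (limma, adjusted p = 0.182) and the cornifelin gene cnfn.1.L by 1.19 ± 0.31 (adjusted p = 0.281). Both were larger in pairs 1, 3 and 4 (1.38 and 1.71) than in pairs 2 and 5 (0.72 and 0.41). The glycolytic kinase gene pgk1 differed by 1.09 ± 0.18 (adjusted p = 0.159) and plod1.S, which encodes a collagen lysyl hydroxylase, by 1.06 ± 0.28 (adjusted p = 0.281). These were larger in pairs 2 and 5 (1.45 and 1.83) than in pairs 1, 3 and 4 (0.85 and 0.55). The ankyrin repeat gene ankrd12.S was at 1.24 ± 0.39 (adjusted p = 0.308), and XB5815362.S, listed only by a database symbol, at 1.31 ± 0.31 (adjusted p = 0.268). All 6 were chosen among copies higher in 5 of 5 pairs, and of them only plod1.S had groups that did not overlap.

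Among the largest lower copies with 5 of 5 pairs, the anterior neural genes hesx1.L, hesx1.S, fezf2.L and rax.L were called. The others of the 10 were agr2.L, agr2.S, cebpa.L, pitx1.L, otx2.S and hspbp1.L. The cement gland homeobox gene pitx1.L was at 6.89, 5.91, 7.58, 6.05 and 5.38 in controls 1 to 5 and at 4.13, 4.76, 6.15, 3.08 and 4.69 in mRNA arrays 1 to 5, with overlapping groups. Its difference was -1.80 ± 0.34 (limma, adjusted p = 0.175), -2.39 over pairs 1, 3 and 4 and -0.92 over pairs 2 and 5. The gene of the chaperone cofactor hspbp1.L went the other way with the pairs, at -0.71 over pairs 1, 3 and 4 and -3.19 over pairs 2 and 5 (-1.70 ± 0.50 over all, adjusted p = 0.2997). Both were chosen among copies lower in every pair, but only pitx1.L kept a size past 2-fold without pairs 2 and 5.

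Homeologs allowed the response of a gene to be read from different probe sets. Both copies were tested for 746 genes, each copy by its probe set with the highest mean. The differences of the copies had the same sign in 454 genes (60.9%), both higher in 250 and both lower in 204. Across the 746 genes the difference of the .L copy correlated with that of the .S copy at a Pearson r of 0.404 and a Spearman rho of 0.369, and at an r of 0.491 without rax. The copies share their arrays, and genes are not independent replicates, so no p is given. In single pairs the share with the same sign was 57.6% to 65.1%.

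The share of genes with the same sign differed with the size of the difference, and r with the level. Where the larger of both differences was under 0.25, 55.0% of 413 genes had the same sign. From 0.25 to 0.5 it was 65.4% of 254, from 0.5 to 1 it was 76.5% of 68, and from 1 it was 81.8% of 11. The r in these 4 classes was 0.191, 0.348, 0.431 and -0.177, so that it did not follow the share in the last class, which holds rax. All 9 agreeing genes of that class were lower in both copies. Where both copies lay at or above log2 8, r was 0.652 over 285 genes, against 0.286 over the 227 genes whose lower copy was under 6. The Spearman rho differed less, at 0.483 and 0.305 in the same order. The class under 6 holds rax, and the class at or above 8 holds agr2. The sign share moved less with level, at 59.0% with the lower copy under 6, 59.4% from 6 to 8 and 63.5% at or above 8. Of the .L copies 51.7% were higher and of the .S copies 54.4%, with 57 of each higher in 5 of 5 pairs. Lower in 5 of 5 pairs were 67 .L copies and 44 .S copies. The difference between these counts of .L and .S copies was not tested.

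**Figure D3:**
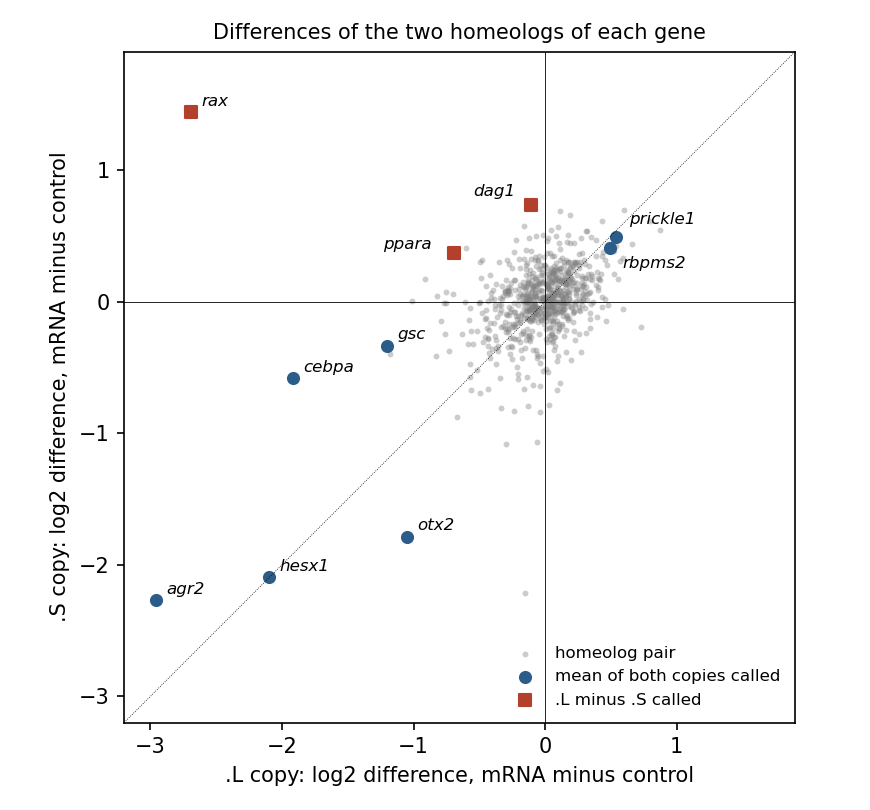
Log2 difference (mRNA minus control) of the .S copy against that of the .L copy for 746 genes with both homeologs tested, with the 7 genes called on the mean of both copies in blue and the 3 called on the difference between copies in red. The dotted line marks equal differences; hesx1 lies on it, and rax lies far off it, with .L lower and .S higher in the probe sets plotted.

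The mean of both copies was called in 7 of 746 genes (0.938%), 5 lower (0.67%) and 2 higher (0.268%), by limma with adjustment over the 746. With arrays centred on their medians or quantile normalized it was 5 lower and 1 higher. Of all 746, 149 had an unadjusted p under 0.05. The lower genes were hesx1, cebpa, otx2, agr2 and gsc, and the higher ones prickle1 and rbpms2.

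For hesx1, whose homeodomain protein represses transcription in the prospective forebrain, the .L copy was at 7.76, 9.19, 9.65, 7.37 and 9.14 in controls 1 to 5 and at 6.26, 7.48, 7.91, 4.70 and 6.29 in mRNA arrays 1 to 5. The .S copy was at 5.72, 7.15, 7.10, 4.88 and 7.22 in controls 1 to 5 and at 3.56, 5.11, 5.53, 3.07 and 4.33 in mRNA arrays 1 to 5. Every mRNA array lay below the control of its number, although the groups overlapped, controls 1 and 4 being lower than the other 3. The mean of both copies fell by 2.09 ± 0.17 (limma, adjusted p = 0.00101). The copies fell alike, with an .L minus .S difference of -0.01 ± 0.21. The call held without each pair in turn, at -1.90 to -2.20, and without pairs 2 and 5 together (-1.91), but not without the replicate block (adjusted p = 0.327).

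The gene agr2 encodes a secreted disulfide isomerase of the cement gland. Its .L copy was at 9.79, 9.61, 11.91, 9.93 and 9.32 in controls 1 to 5 and at 5.57, 8.26, 9.36, 4.77 and 7.77 in mRNA arrays 1 to 5. Its .S copy was at 9.35, 9.49, 11.35, 9.70 and 9.62 in controls 1 to 5 and at 6.74, 8.48, 8.89, 6.24 and 7.80 in mRNA arrays 1 to 5. Control 3 was the highest array for both copies, and only the .S groups did not overlap. The mean of both copies fell by 2.61 ± 0.40 (limma, adjusted p = 0.0340). It was past the threshold without pair 2 (-2.97) or 4 (-2.19) and not without pair 1 (-2.42), 3 (-2.64) or 5 (-2.85), nor without the replicate block (adjusted p = 0.327).

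The head homeobox gene otx2 was lower in both copies as well. Its .L copy was at 8.59, 8.55, 8.91, 8.21 and 8.74 in controls 1 to 5 and at 7.16, 7.26, 8.31, 7.46 and 7.56 in mRNA arrays 1 to 5. Its .S copy was at 6.26, 6.53, 6.85, 5.82 and 6.90 in controls 1 to 5 and at 4.50, 4.05, 5.92, 5.07 and 3.88 in mRNA arrays 1 to 5. Only mRNA array 3 overlapped the controls, at 8.31 for .L and 5.92 for .S, and the mean of both copies fell by 1.42 ± 0.21 (limma, adjusted p = 0.0334). The value was -1.37, -1.30, -1.58 and -1.25 without pairs 1, 2, 3 and 5, where it was not called, and -1.59 without pair 4, where it was. Without pairs 2 and 5 together it was -1.04 and not called. The call was also lost without the replicate block (adjusted p = 0.118) and with the 3' minus 5' covariate (-1.12, adjusted p = 0.0644).

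The transcription factor gene cebpa, known from myeloid and metabolic tissues, was lower on the mean of its copies. Its .L copy was at 7.09, 7.06, 9.14, 6.63 and 7.14 in controls 1 to 5 and at 6.02, 3.75, 7.998, 4.52 and 5.18 in mRNA arrays 1 to 5. Its .S copy was at 4.89, 3.87, 6.43, 3.93 and 3.70 in controls 1 to 5 and at 3.88, 3.18, 5.15, 3.85 and 3.84 in mRNA arrays 1 to 5. Controls 2, 4 and 5 of the .S copy were already under log2 4. The mean of both copies fell by 1.25 ± 0.15 (limma, adjusted p = 0.0132), and the call was lost without pair 3 (-1.26) but not without any other single pair. It was also lost with a random replicate block (adjusted p = 0.106), without the block (adjusted p = 0.532) and with the 3' minus 5' covariate (-1.20, adjusted p = 0.0513). The .S copy was lower in 4 of 5 pairs. By copy the values were -1.92 for .L and -0.58 for .S, but their difference, -1.33 ± 0.42, was not called (limma, adjusted p = 0.319).

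The organizer homeobox gene gsc was low in these embryos. Its .L copy was at 5.29, 5.02, 6.56, 5.11 and 4.63 in controls 1 to 5 and at 4.28, 3.53, 4.56, 4.47 and 3.77 in mRNA arrays 1 to 5. Its .S copy was at 4.97, 4.50, 5.24, 4.15 and 4.21 in controls 1 to 5 and at 4.08, 4.37, 4.84, 4.09 and 4.02 in mRNA arrays 1 to 5. The .L groups did not overlap and the .S groups did. The mean of both copies fell by 0.77 ± 0.13 (limma, adjusted p = 0.0365). It was called without pair 4 (-0.87) and not without pair 1 (-0.72), 2 (-0.76), 3 (-0.66) or 5 (-0.83). It was also not called with a random replicate block (adjusted p = 0.0540), without the block (adjusted p = 0.394), with the 3' minus 5' covariate (adjusted p = 0.0644) or without pairs 2 and 5 together (adjusted p = 0.0914).

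The planar cell polarity gene prickle1 was higher in both copies by similar amounts. Its .L copy was at 7.79, 8.02, 8.27, 7.90 and 8.12 in controls 1 to 5 and at 8.27, 8.51, 8.92, 8.41 and 8.69 in mRNA arrays 1 to 5. Its .S copy was at 9.06, 8.92, 8.79, 8.67 and 8.89 in controls 1 to 5 and at 9.21, 9.37, 9.12, 9.44 and 9.66 in mRNA arrays 1 to 5. The groups overlapped for neither copy, and both copies were higher in 5 of 5 pairs. The mean of both copies rose by 0.52 ± 0.08 (limma, adjusted p = 0.0365). It was called without pair 1 (0.57) and not without pair 2 (0.53), 3 (0.52), 4 (0.49) or 5 (0.48). It was also not called without the replicate block (adjusted p = 0.118), with the 3' minus 5' covariate (adjusted p = 0.100) or without pairs 2 and 5 together (adjusted p = 0.130). The RNA-binding protein gene rbpms2 rose by 0.45 ± 0.08 (limma, adjusted p = 0.0391), with its .L copy between 3.24 and 4.57 and its .S copy between 4.22 and 5.73, each higher in 4 of 5 pairs. The rbpms2.L copy was under log2 4 in every control and in mRNA arrays 1, 3 and 5, so its difference is uncertain. The rbpms2 mean was called in 4 of 16 alternative settings and in none that left out a pair (0.42 to 0.48) or rescaled the arrays (0.42 and 0.44).

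**Figure D4:**
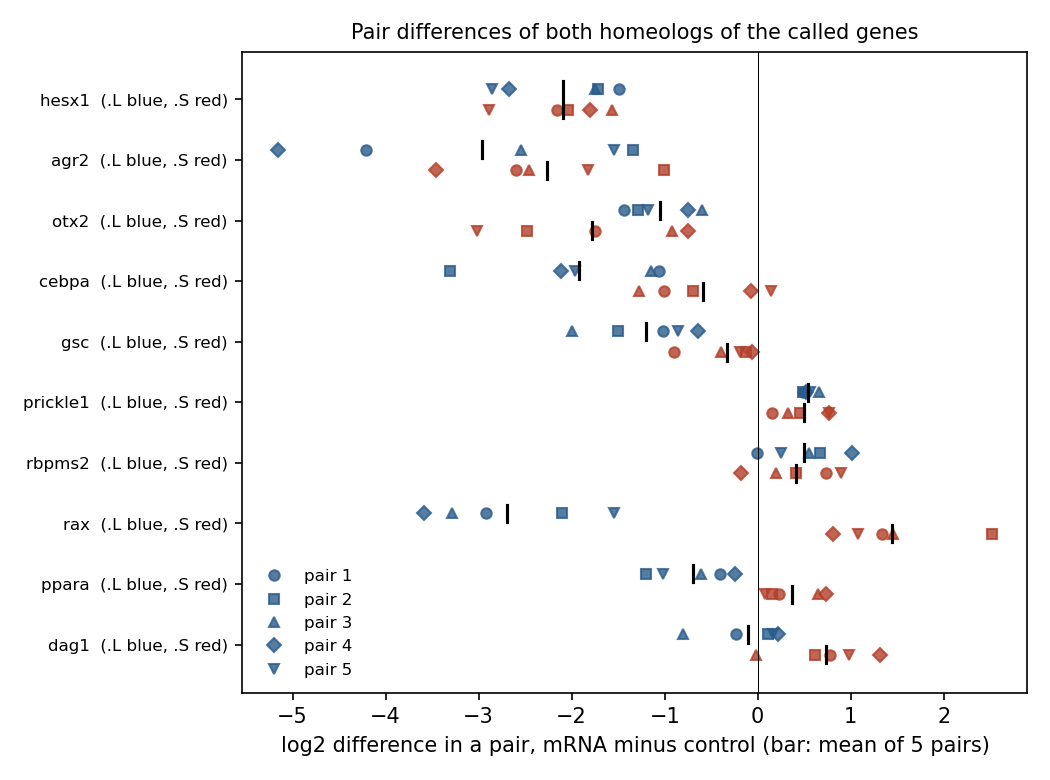
Log2 difference (mRNA minus control) in each of the 5 pairs for the .L copy (blue) and the .S copy (red) of the 10 genes called on the homeolog mean or the homeolog difference, with a black bar at the mean of the 5 pairs. Both copies of hesx1, agr2 and otx2 lie below 0 in every pair, and the probe sets plotted for the copies of rax lie on opposite sides of 0. A second rax.S probe set, at -1.37, is not plotted.

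The response of the copies to the injection was called different in 3 of 746 genes (0.402%), and 82 had an unadjusted p under 0.05. In rax the .L copy was at 6.93, 6.73, 8.38, 6.68 and 6.78 in controls 1 to 5 and at 4.00, 4.62, 5.09, 3.09 and 5.23 in mRNA arrays 1 to 5. The .S copy was at 4.93, 5.14, 5.68, 4.72 and 5.07 in controls 1 to 5 and at 6.28, 7.65, 7.14, 5.53 and 6.15 in mRNA arrays 1 to 5. The .L groups did not overlap, with the mRNA arrays below, while the .S copy was higher in 5 of 5 pairs. The .L minus .S difference was -4.13 ± 0.30 (limma, adjusted p = 0.000685), made of -2.69 for .L and 1.44 for .S. It was called in all 16 alternative settings in which both copies were tested, at -2.72 to -4.54. A second rax.S probe set went the other way. It was at 4.32, 5.87, 6.03, 4.15 and 4.20 in controls 1 to 5 and at 3.04, 3.48, 4.42, 2.91 and 3.86 in mRNA arrays 1 to 5, a difference of -1.37 ± 0.26 (limma, adjusted p = 0.171). Which rax probe sets can detect the injected mRNA is not known here, and its part in these values was not tested.

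In ppara, a nuclear receptor gene of fatty acid metabolism, the .L copy was at 4.51, 5.49, 4.87, 4.38 and 5.35 in controls 1 to 5 and at 4.11, 4.29, 4.26, 4.13 and 4.33 in mRNA arrays 1 to 5. The .S copy was at 5.06, 4.81, 4.24, 4.92 and 4.82 in controls 1 to 5 and at 5.29, 4.96, 4.88, 5.66 and 4.90 in mRNA arrays 1 to 5. The mRNA arrays lay below the controls for .L in 5 of 5 pairs and above them for .S in 5 of 5. In the probe sets used, no other gene but rax had opposite copies of such consistency. The .L minus .S difference was -1.06 ± 0.14 (limma, adjusted p = 0.0248). It was called without pair 1 (-1.17) and not without pair 2 (-0.99), 3 (-1.02), 4 (-1.09) or 5 (-1.05), and in 8 of 16 alternative settings. In dag1, which encodes the matrix receptor dystroglycan, the .L copy differed by -0.11 ± 0.16 and the .S copy by 0.74 ± 0.18. Their difference, -0.84 ± 0.13 (limma, adjusted p = 0.0497), was called in 5 of 16 settings and was not called without any 1 pair (-0.78 to -0.93). The dag1.S copy was higher in 4 of 5 pairs and lay just above log2 4 in controls, at 4.07 to 4.47. Next were the glycosyltransferase gene b3gnt2 (-0.79 ± 0.16) and the homeobox gene crx (-0.86 ± 0.17), both with adjusted p = 0.175. The b3gnt2.L copy was under log2 4 in every mRNA array, at 2.50 to 3.38. Among the controls only control 2, at 4.06, was above log2 4, so this difference is uncertain.

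Both copies had 5 of 5 pairs higher in 9 genes and 5 of 5 lower in 18, while in 167 genes only 1 copy did. The higher 9 were prickle1, znf703, kdm3a, spry2, tfcp2l1, fkbp9, cdc6, poldip2 and pdik1l. Their differences were small, from 0.06 for pdik1l.L to 0.61 for the zinc finger gene znf703.S. In the histone demethylase gene kdm3a the copies were at 0.39 and 0.46, and in spry2, a feedback inhibitor of FGF signalling, at 0.44 and 0.38. Those of the replication licensing gene cdc6 were at 0.28 and 0.37. Only prickle1 passed on the mean of both copies, znf703 coming next (0.52 ± 0.10, limma, adjusted p = 0.0510).

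Of the 18 lower genes, the 10 with the largest smaller difference were agr2, hesx1, otx2, atp5f1c, ag1, nasp, mcts1, psma7, phb2 and dlx3. The ATP synthase subunit gene atp5f1c was at -0.67 and -0.88 in its .L and .S copies (limma on their mean, adjusted p = 0.138). The cement gland gene ag1 was at -0.57 in both (adjusted p = 0.0660), the histone chaperone gene nasp at -0.49 and -0.69 (adjusted p = 0.0660), and the prohibitin gene phb2 at -0.41 and -0.36 (adjusted p = 0.0660). Neither nasp probe set is of the manufacturer's unique type, so they may not measure the copies separately. The phb2.L copy lay around log2 4, at 3.94 to 4.69 in controls and 3.47 to 4.25 in mRNA arrays, where differences are uncertain. The proteasome subunit gene psma7 was at -0.38 and -0.48, the translation gene mcts1 at -0.43 and -0.39, and the border homeobox gene dlx3 at -0.36 and -0.37. None of these 7 was past 2-fold in either copy or called on the mean of both.

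A large difference in 1 copy was not always shared. An example, chosen after its values were seen, was osbpl2.S at -2.22 against -0.16 for osbpl2.L, with osbpl2.S lower in 4 of 5 pairs. Different probe sets of 1 symbol gave a yardstick. The pair with the highest means was compared, and symbols without .L or .S were kept. Of 863 such combinations 62.1% had the same sign, with an r of 0.355. Among the 486 in which both probe sets were of the manufacturer's unique type, 55.1% had the same sign and r was 0.195. Homeologs of that type had 61.7% and an r of 0.403 over 650 genes. The median level of the lower probe set was 6.73 in the former and 7.20 in the latter, so the comparison is not at equal levels. With the lower level at or above log2 8 the values were 61.2% and 0.299 over 134 combinations and 64.8% and 0.678 over 233 homeolog pairs. The difference between these shares was not tested.

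**Figure D5:**
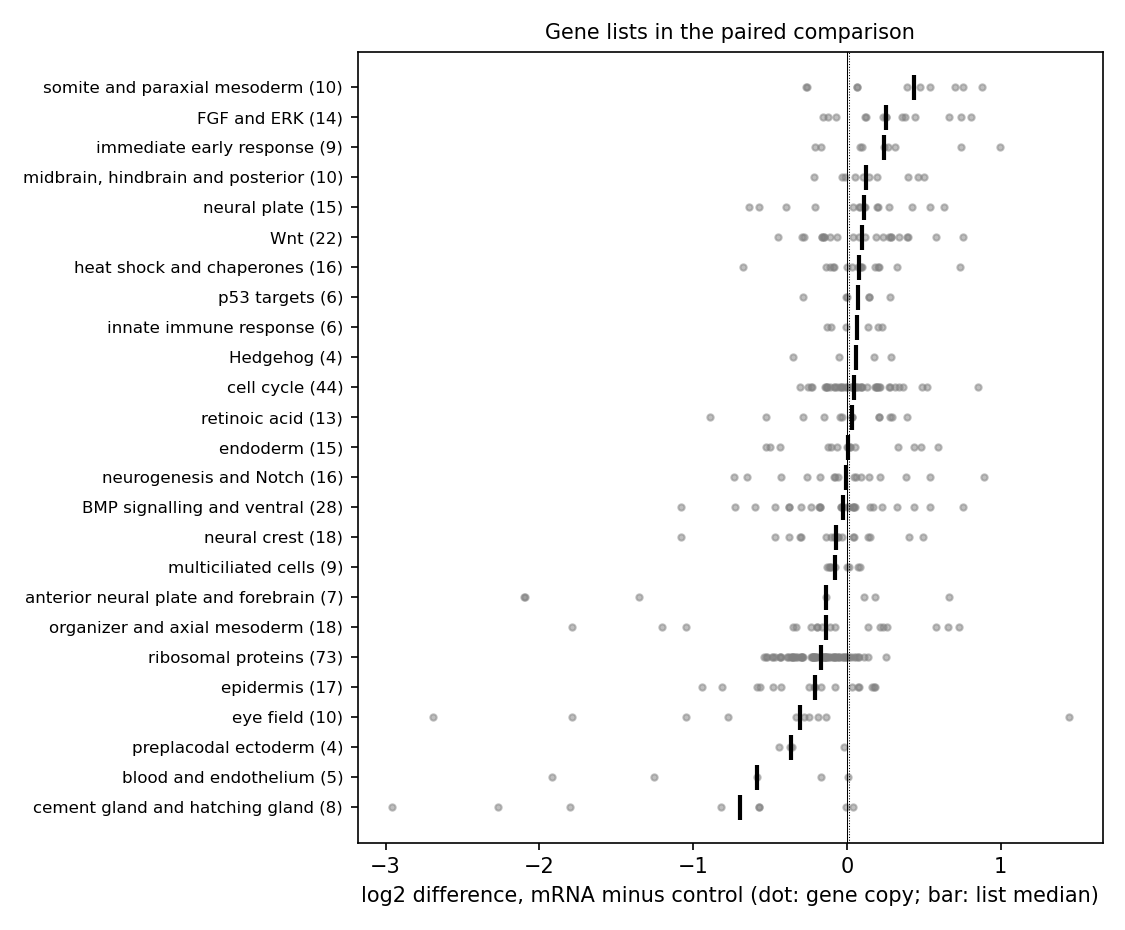
Log2 difference (mRNA minus control) of each tested gene copy (dot) in 25 gene lists, ordered by list median (bar), with the number of copies in parentheses and a dotted line at the median of all 5667 copies with a symbol. Cement gland genes had the lowest median, -0.70, and somite genes the highest, 0.43.

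Gene lists were described over copies, each by its probe set with the highest mean. Of all 5667 copies with a symbol, 2975 were higher (52.5%) and 2692 lower, and the median difference was 0.01. Higher in 5 of 5 pairs were 441 (7.78%), and lower in 5 of 5 pairs were 387 (6.83%). The lists were chosen with results of these arrays known, and they share some genes.

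Eye field, cement gland and preplacodal copies were mostly lower. Of 10 eye field copies 9 were lower and 6 lower in 5 of 5 pairs, with a median of -0.31 and 1 called, rax.L. The median was -0.55 in pairs 1, 3 and 4 and -0.20 in pairs 2 and 5. The exception was rax.S at 1.44, whose second probe set was at -1.37. The members six3.L and six3.S, of a homeobox gene of the eye field, were at -0.33 and -0.19. Of 8 cement gland and hatching gland copies 7 were lower and 6 lower in every pair, with a median of -0.70 and 0 called. The median was -0.78 in pairs 1, 3 and 4 and -0.72 in pairs 2 and 5. Of 7 anterior neural plate and forebrain copies 4 were lower, and 3 of these, hesx1.L, hesx1.S and fezf2.L, were called. Its median was -0.13 over the 5 pairs, -0.38 in pairs 1, 3 and 4 and -0.28 in pairs 2 and 5. The FGF ligand fgf8.L was the 1 member of that list with 5 of 5 pairs higher. Of 4 preplacodal copies 3, dlx3.L, dlx3.S and dlx5.L, were lower in every pair (median -0.36). The preplacodal median was -0.15 in pairs 1, 3 and 4 and -0.56 in pairs 2 and 5.

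In the somite, FGF, posterior, neural plate and immediate early lists 70% to 80% of copies were higher, against 52.5% of all copies. The Wnt list, at 59.1%, lay near the share of all copies. No member of these lists was called. Of 10 somite and paraxial mesoderm copies 8 were higher and 4 higher in every pair, with a median of 0.43, 0.29 in pairs 1, 3 and 4 and 0.62 in pairs 2 and 5. Their T-box gene tbx6.L was at 0.75 ± 0.18 (limma, adjusted p = 0.275) and the myogenic gene myod1.S at 0.54 ± 0.13 (adjusted p = 0.268). Of 14 FGF and ERK copies 11 were higher, 5 in every pair, with a median of 0.25, 0.21 in pairs 1, 3 and 4 and 0.30 in pairs 2 and 5. The fgf8.L probe set was at 0.66 ± 0.12 (adjusted p = 0.169), and its groups did not overlap. Of 10 midbrain, hindbrain and posterior copies 7 were higher (median 0.12, split as 0.23 and 0.18 in the same order), with the homeobox gene meis3.S at 0.50 ± 0.12 (adjusted p = 0.268). Of 15 neural plate copies 11 were higher (median 0.11, split as 0.15 and 0.24). Among them the zinc finger gene zic2.L was at 0.54 ± 0.11 (adjusted p = 0.1995) without overlap of the groups, and the homeobox gene irx3.L at -0.64 ± 0.15 (adjusted p = 0.263). Of 22 Wnt copies 13 were higher (median 0.10), 4 in every pair and 0 lower in every pair. The Wnt median was 0.15 in pairs 1, 3 and 4 and -0.02 in pairs 2 and 5, so that its sign turned. For the secreted ligand wnt8a.L the difference was 0.76 ± 0.17 (adjusted p = 0.263), without overlap of the groups. The ligase gene znrf3.S, whose product removes Wnt receptors, was at 0.39 ± 0.10 (adjusted p = 0.281). Of 9 immediate early copies 7 were higher (median 0.24, split as 0.16 and 0.25), with junb.L at 1.00 ± 0.24 (adjusted p = 0.272) and non-overlapping groups.

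Ribosomal protein genes, whose messages are abundant, differed little but mostly in 1 direction. Of 73 copies 64 were lower and 25 lower in every pair, with a median of -0.17 and a range from -0.54 to 0.25, and 0 were called. The median was -0.16 in pairs 1, 3 and 4 and -0.25 in pairs 2 and 5. Among all 1292 probe sets above log2 10, 10.4% were lower in every pair. The rpl4.L probe set was at -0.48 ± 0.11 (limma, adjusted p = 0.263) and that of rplp0.S at -0.47 ± 0.14 (adjusted p = 0.296).

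Other ectodermal and mesendodermal lists were mixed, again with 0 called. Of 17 epidermis copies 11 were lower (median -0.21, split as -0.24 and -0.25), 2 in every pair, and the keratin gene krt12.5.S was at -0.94 ± 0.31 (limma, adjusted p = 0.311). Over pairs 1, 3 and 4 krt12.5.S was at -0.53, and over pairs 2 and 5 at -1.56. Of 18 neural crest copies 12 were lower (median -0.07), the median being -0.25 in pairs 1, 3 and 4 and 0.21 in pairs 2 and 5. Its zinc finger repressor snai1.S was at 0.40 ± 0.11 (adjusted p = 0.288). The members c3.L, at -0.47 ± 0.13, and msx1.L, at -0.30 ± 0.10, were lower in every pair. Of 18 organizer and axial copies 11 were lower (median -0.14), 5 in every pair, with gsc.L at -1.20 ± 0.20 (adjusted p = 0.159). The organizer median was 0.10 in pairs 1, 3 and 4 and -0.26 in pairs 2 and 5, so that its sign turned with the pairs. The 15 endoderm copies had a median of 0.00, of the opposite sign after rescaling of the arrays, and none had 5 of 5 pairs. Their median was -0.03 in pairs 1, 3 and 4 and -0.11 in pairs 2 and 5. Of 5 blood and endothelium copies 4 were lower (median -0.58, split as -0.79 and -0.28), with cebpa.L at -1.92 ± 0.31 (adjusted p = 0.159). Both cebpa copies are among the 5, and the median is the value of cebpa.S, which lay near log2 4. The member mpo.S, at -1.25 ± 0.52, had means of 3.64 in controls and 2.39 in mRNA arrays, with -4.03 in pair 3. These 2 differences are uncertain. The 9 multiciliated copies had a median of -0.08, split as -0.05 and 0.04, none in 5 of 5 pairs.

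Medians between -0.03 and 0.08 over the 5 pairs were found for further signalling and housekeeping lists. The medians were -0.01 for 16 neurogenesis and Notch copies, -0.03 for 28 BMP and ventral copies, 0.03 for 13 retinoic acid copies and 0.06 for 4 Hedgehog copies. The Hedgehog value joined -0.14 in pairs 1, 3 and 4 and 0.36 in pairs 2 and 5. The other 3 were at -0.01 and 0.01, -0.04 and -0.02, and 0.09 and 0.02 in the same order. Within them the neuronal tubulin gene tubb2b.S was at -0.73 ± 0.16 (limma, adjusted p = 0.247), msx2.L, from a homeobox gene downstream of BMP, at -0.60 ± 0.18 (adjusted p = 0.2997) and crabp2.L, for a retinoid-binding protein, at -0.89 ± 0.21 (adjusted p = 0.268). Also lower were elavl3.L (-0.65 ± 0.23) and cyp26c1.S (-0.53 ± 0.21). Over pairs 1, 3 and 4, tubb2b.S, msx2.L, crabp2.L and elavl3.L were at -0.66, -0.31, -0.51 and -0.25. Over pairs 2 and 5 they were at -0.84, -1.04, -1.47 and -1.24. Only cyp26c1.S was further from 0 in pairs 1, 3 and 4 (-0.63) than in pairs 2 and 5 (-0.37). Other members were higher, with hes4.S at 0.54 ± 0.16, wnt8a.L, also on the BMP list, at 0.76 ± 0.17 and rdh10.S at 0.39 ± 0.12. The median was 0.05 for 44 cell cycle copies, with 7 higher and 3 lower in every pair, and 0.08 for 16 heat shock and chaperone copies. By pairs these were 0.04 and 0.06 for the cell cycle and 0.00 and 0.13 for the chaperones. In the chaperone list dnajb11.S was at -0.67 ± 0.12 (adjusted p = 0.166) and the collagen chaperone gene serpinh1.S at 0.73 ± 0.21 (adjusted p = 0.288). Over pairs 1, 3 and 4 these were -0.63 and 0.34, and over pairs 2 and 5 they were -0.74 and 1.32. Innate immune genes (6 copies, median 0.06) and p53 targets (6 copies, median 0.07) had 3 copies on each side. Their medians were 0.07 and -0.09, and -0.01 and 0.11, in pairs 1, 3 and 4 and in pairs 2 and 5.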

How the data were processed

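Affymetrix Xenopus laevis arrays were hybridised with labelled RNA of whole embryos. The authors' deposited values are log2 expression per probe set, and the submitters' processing notes name GCRMA, with no version; GCRMA moves values near background, so differences under log2 4 are uncertain. The deposited log2 values were used as they are. Replicate number pairs the arrays: after group means were removed, the r of same-number arrays ran from 0.226 to 0.634. All 5 exceeded 0.1, and 4 mRNA arrays were most like their own control.

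Probe sets above log2 4 in at least 5 of the 20 arrays were tested with limma 3.58.1 in R 4.3.3 (lmFit with replicate number as a block, eBayes), with Benjamini-Hochberg adjustment over 10435 probe sets and a threshold of 0.05; results past it count as called. The same fit was run over 746 genes on the mean of the log2 values of both homeologs and on .L minus .S. A log2 difference is mRNA minus control, and ± after it gives the SE of the fit. The scripts were tested on simulated data. Gene symbols came from the platform annotation: 6848 tested probe sets had 1 symbol and 3587 had none or several and were left unnamed. A gene copy was represented by its tested probe set with the highest mean. A second probe set of a copy is given only for rax.S and pax6.L, and the values of the pax6.L probe set with the highest mean are not given. Other named copies with several tested probe sets, such as otx2.L, rbpms2.S and ag1.S, are given by 1 only. Arrays carry no counts, and their number limits the precision. Controls 6 to 10 and the arrays labelled morpholino entered only the filter. No sequence is given here, as none was used.

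Named were every called probe set; up to 10 genes each way whose copies both had 5 of 5 pairs in 1 direction, by the smaller difference; the 10 largest copies each way with 5 of 5 pairs and a mean above log2 6 in the higher group; called homeolog means, and the 5 homeolog differences with the smallest p; 3 members of each list by moderated t, of which some are printed; and rax. Other list members given were chosen after their values were seen. The members, lists and tests were chosen with earlier results of these data known. Alternatives were other filters, centring on array medians, quantile normalization, leaving out each pair, no block or a random block, a trended and robust eBayes, array weights, other choices of probe set, and, chosen after seeing the data, the 3' minus 5' level as a covariate and leaving out pairs 2 and 5.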

Additional observations from a re-analysis of the deposited data

Results flagged for a closer look

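In 86 checks of 5 arrays of 1 group, 6 found an array far from the rest of its group; chance flags about 1 in 20 groups. Control 3 was the high array in 5 of the 6. It was at log2 8.38 for rax.L, where the next control was at 6.93, and at 9.64 for acod1lb.L, where the next was at 4.16. It was at 11.9 for agr2.L and 11.3 for agr2.S, where the next controls were at 9.93 and 9.70, and at 9.14 for cebpa.L, where the next was at 7.14. The lowest mRNA array for pgk1 was mRNA array 3, at 6.03, with the next at 6.61. The cause was not tested.

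Signal also appeared in the control probe sets taken here as the tracer signal, which lay outside the comparison. The probe set AF292560 averaged 13.9 in mRNA arrays, with no control above 3.56, and M62653 averaged 13.6, with no control above 3.32.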

How the results depend on the processing

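Over 112 named values and their alternative settings, 1565 of 1709 values kept direction and side of the threshold, 118 lost a call, 19 gained one and 7 reversed, none of the 7 called before or after: dnai1.L (0.0031) and sesn1.L (-0.024, and up to 0.27 without another pair) without pair 5; tubb4b.L (0.0084), traf6.S (0.030) and sesn1.L (-0.19) with the 3' minus 5' covariate; traf6.S (0.030) and sesn1.L (-0.23) without pairs 2 and 5 together. In place of the 7 probe sets, limma called 0 without a filter (1840 at an unadjusted p under 0.05) or without the replicate block (812), 3 with a random block, 15 with the covariate, and 0 to 5 without 1 pair (783 to 1943 at an unadjusted p under 0.05). The 1411 consistent probe sets became 1815 to 2933 without 1 pair and 3038 without pairs 2 and 5, fewer pairs having to agree; without the replicate block, the groups of 111 did not overlap. The 102 past 2-fold became 59 to 195 without 1 pair and 64 without pairs 2 and 5. The 7 homeolog means became 3 with the log2 6 filter, 0 without the replicate block (66 at an unadjusted p under 0.05), 11 with a trended and robust eBayes or with all probe sets of a copy averaged, 2 with the covariate, 4 without pairs 2 and 5 and 1 to 6 without 1 pair. The 3 homeolog differences became 1 without a filter, 0 with the log2 6 filter, where rax was not tested (62 at an unadjusted p under 0.05), 1 without the replicate block, 7 with a random block, 1 with the covariate, 1 without pairs 2 and 5 and 1 to 2 without 1 pair. Homeologs of 1 sign made up 59.2% to 63.5% without 1 pair and 64.2% without pairs 2 and 5. Beyond fewer arrays or probe sets, the causes were not tested.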
